A study of Drosophila melanogaster with 2 samples.

Results

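The genes described here are the 5 GATA transcription factor genes srp, pnr, grn, GATAd and GATAe and the gene of their cofactor, ush (u-shaped). They were taken by symbol, and the set was chosen by the ranks of the Rel-GFP peaks at these genes, which were already known. Which of them hold peaks, and at what rank, is therefore a description, and no test was made of it. They are 6 of the 13945 protein-coding genes on the main chromosomes and hold 8 of the 2133 peaks kept by the authors. The peaks come from ChIP-seq with an anti-GFP antibody on whole wandering third-instar larvae, males and females together. The larvae were of a transgenic Drosophila melanogaster line with GFP at the C terminus of Rel (Relish), the NF-κB factor of the Imd immune pathway. There is 1 group, Rel-GFP larvae, with 2 biological replicates, numbered 2 and 3. Rel is cut in its middle on activation, and a tag at the C terminus marks the uncut protein and the C-terminal piece, not the N-terminal piece that holds the DNA-binding domain. In whole larvae, strong binding in few cells and weak binding in many cannot be told apart.

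GATA factors are zinc finger proteins that bind DNA at sites with the core GATA. In flies srp (serpent) is needed for blood cells, fat body and endoderm, pnr (pannier) for the dorsal thorax and the heart, grn (grain) for the posterior spiracles and some neurons, and GATAe for the midgut. The product of ush, a multi-zinc-finger protein of the FOG family, binds GATA factors such as Pnr and Srp and modifies what they do, often by repression. Several antimicrobial peptide genes that Rel activates carry GATA sites next to their NF-κB (kB) sites, and Srp acts there together with Rel in the fat body. The peaks below lie at ush and at the GATA factor genes themselves, which is a separate matter from GATA sites at Rel targets. Of the 8 peaks kept by the authors, 6 lie at ush.

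Each list gives the peak caller's signal value for every region, and regions were ranked by it within a list. The list kept after the irreproducible discovery rate procedure (IDR list) ends at rank 2133 of the pooled regions, with a signal value of 72.5. Longer relaxed lists of 30000 regions, which mix peaks with background, exist for the pooled reads and for each replicate. A gene was said to hold a peak if the summit lay inside it or within 1000 bp upstream. By that rule 3 of the 6 genes, ush, GATAd and grn, held an IDR summit, and 10.6% of all protein-coding genes did (1485 of 13945). The genes that held none were srp, GATAe and pnr. Since the set was chosen with these peaks known, nothing is read from the comparison. The lowest-ranked IDR peak of the set was that of grn (rank 1473, signal value 86.6). The first regions of the set beyond the end of the list were one of ush (rank 2171, 72.0), one of srp (rank 2270, 70.3) and a second one of grn (rank 2295, 69.7).

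**Figure D1:**
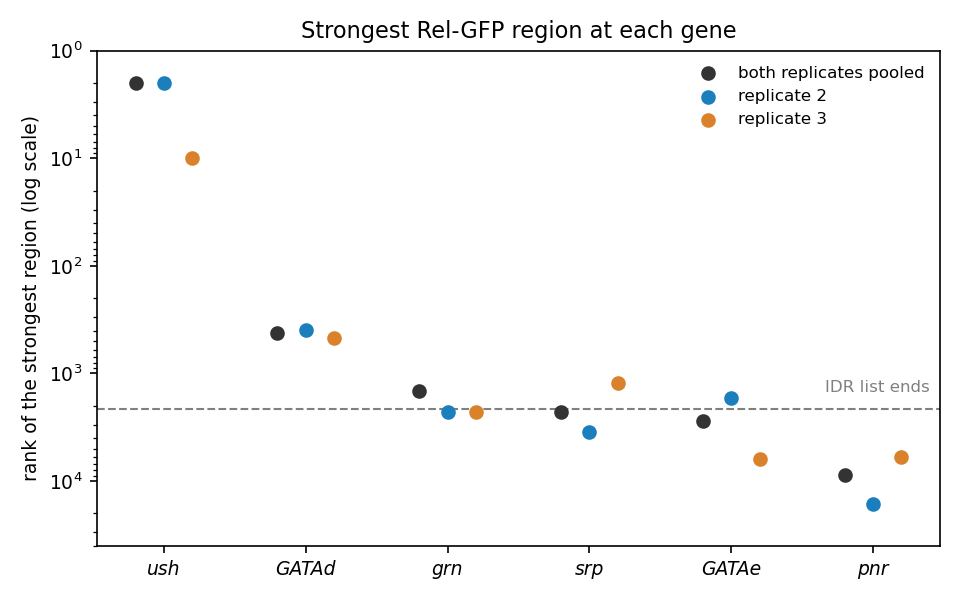
Rank of the strongest region at each of the 6 genes (vertical axis, log scale, rank 1 at the top) in the pooled list and in replicates 2 and 3. The dashed line is the end of the IDR list at rank 2133; ush and GATAd lie above it in all 3 lists, and the 2 replicate points of grn lie just below it.

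The strongest peak of the set lay in ush, a gene of 64.3 kb on the plus strand (FBgn0003963, dm6 chr2L:476220-540560). This peak (chr2L:480944-481235, summit 481035) had rank 2 in the pooled list with a signal value of 562. Its rank was 2 in replicate 2 (signal value 378) and 10 in replicate 3 (186), where the summit lay 87 bp away. Thus the peak was among the strongest of both replicates. It lies 4.82 kb downstream of the first ush start site, in intron 1 of FBtr0333012 and FBtr0333013, the transcripts that begin there. The other 3 of the 5 annotated transcripts begin further downstream. The nearest start site is not that of ush but that of cbt (cabut), 1347 bp away. cbt encodes a Krüppel-like zinc finger factor and is transcribed from the opposite strand (chr2L:476446-479688). The peak lies upstream of the cbt start site, so its position alone does not say which of the 2 genes it belongs to.

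Further IDR summits lay on both sides of this peak. One at 480111 had rank 243 in the pooled list, 143 in replicate 2 and 398 in replicate 3. It is 423 bp upstream of the cbt start site, and it is the summit that makes cbt a peak-holding gene by the same rule. Another at 481246 had rank 235 in the pooled list (signal value 174) and 41 in replicate 2 (166), while the nearest region in replicate 3, 93 bp away, had rank 27235 (9.52). The rank 10 region of replicate 3, with its summit at 481122, lies 124 bp away on the other side, between the 2 pooled summits. Replicate 3 thus had 1 strong summit here, where replicate 2 had 2. The pooled summit at 481246 lies 211 bp from the strongest pooled summit, and these 2 pooled regions overlap by 188 bp. The smallest of the 2127 gaps between neighbouring IDR summits was 199 bp and the median was 19968 bp. Whether the summit at 481246 is a site apart from the strongest one was not tested.

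The remaining IDR summits of ush were weaker and spread downstream. The one at 485867, also in intron 1, had rank 740 in the pooled list, 863 in replicate 2 and 1731 in replicate 3. The summit at 490735 had rank 606 in the pooled list, 350 in replicate 2 and 2500 in replicate 3. It lies 100 bp upstream of the start site of FBtr0310027, an internal ush promoter, and in exon 2 of FBtr0333013. Of the 6 IDR summits, it alone lies within 1000 bp of a ush start site. The summit at 510756 had rank 553 in the pooled list, 347 in replicate 2 and 1552 in replicate 3. It lies in an intron, 12710 bp upstream of the next ush start site. In all, the 6 IDR summits spanned 30.6 kb of the first part of the gene. Ranks were better in replicate 2 than in replicate 3 at each of the 6. The genes on either side, MED15, a Mediator subunit, and lwr, the SUMO-conjugating enzyme, held no IDR summit by the same rule. The flank of ush was not empty, however. IDR summits lay at -4.876 kb (rank 1284) and -7.095 kb (rank 731) from the first ush start site, beyond the 1000 bp counted.

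**Figure D2:**
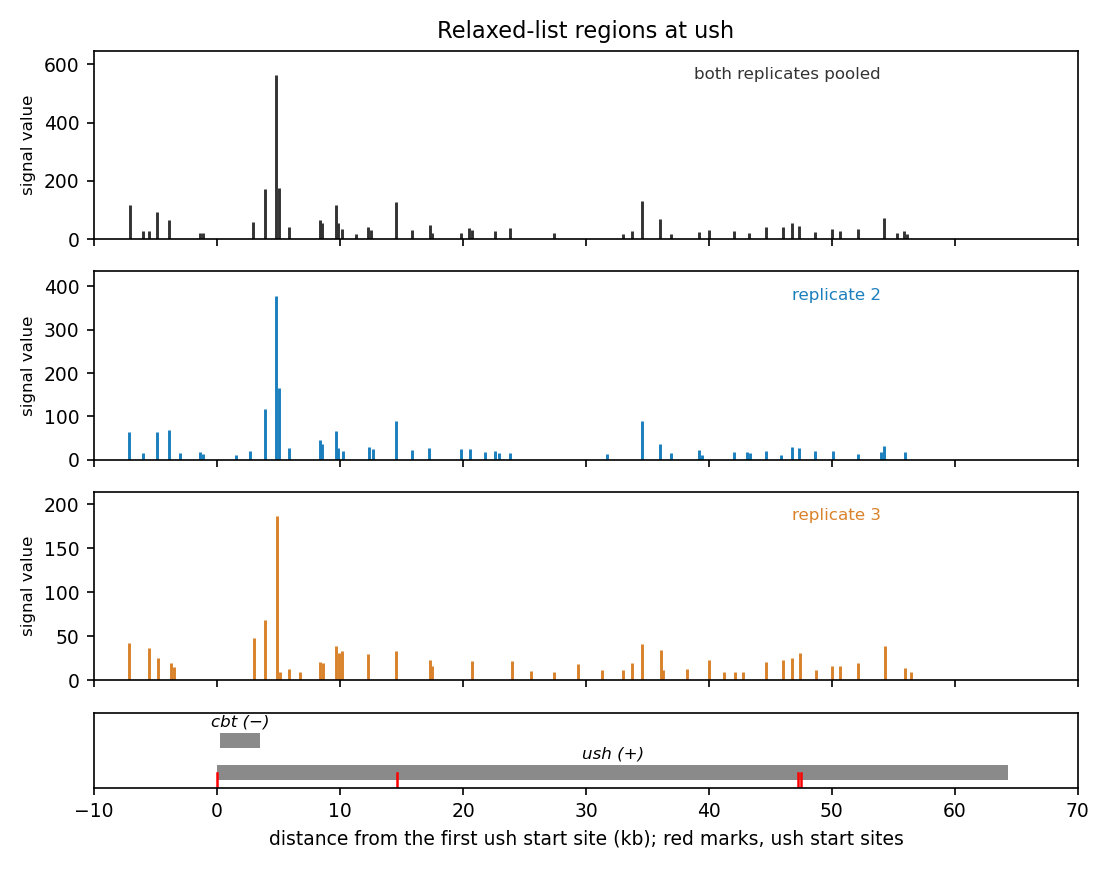
Signal value of every relaxed-list region (vertical axis, linear, own scale in each panel) against the distance in kb from the first ush start site, for the pooled list and for replicates 2 and 3. Grey bars are the annotated genes and red marks the ush start sites. The tallest line in each panel stands 4.82 to 4.9 kb downstream of the first start site, beyond the start of cbt.

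The relaxed lists held many more regions in ush. There were 44 in the pooled list, 41 in replicate 2 and 42 in replicate 3, or 6.73, 6.27 and 6.43 per 10 kb. The median protein-coding gene had 1.12, 1.96 and 1.69 per 10 kb in the same lists, and the density in ush was above that of 91.0%, 88.0% and 89.4% of genes. In the pooled list 13 of the 44 regions had a q under 0.05, as did 9 regions in replicate 2 and 11 in replicate 3. Of the 44 pooled regions, 27 (61.4%) had a summit within 200 bp in both replicates, and of all 30000 pooled regions 39.1% did. Some of the weaker regions ranked better in replicate 3. The region at 479151, inside cbt, had rank 3233 in the pooled list and 1066 in replicate 3, and replicate 2 had no summit within 200 bp. The region at 530500 had rank 2171 in the pooled list, 4469 in replicate 2 and 1670 in replicate 3.

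Long genes hold more summits, so the count for ush was set beside genes of its length. It was 1 of 30 protein-coding genes with 6 or more IDR summits. Of the 319 protein-coding genes from 42894 to 96512 bp long (within 1.5 times its length, ush included), 43.9% held a summit, and 18 held 6 or more. Its summit count is thus shared by a number of genes of this length. Among the 30 genes, the best rank was that of ush, 2, followed by Syp at 25, sbb at 31 and Tet at 34. The largest number of summits in a gene was 16, in sbb.

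**Figure D3:**
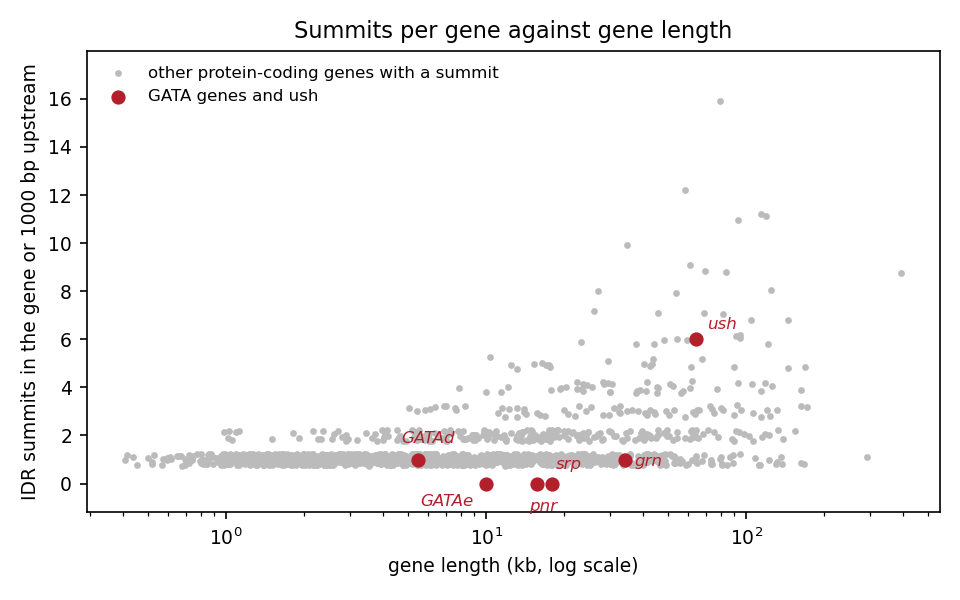
IDR summits in the gene or 1000 bp upstream (vertical axis) against gene length in kb (log scale). Grey points, jittered vertically, are the protein-coding genes with a summit. Red points, not jittered, are the 6 genes of the set, ush included. ush stands at 64.3 kb with 6 summits, GATAd and grn at 1, and srp, GATAe and pnr at 0.

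Sequences are shown for 3 of the ush summits to set the strongest peak and the summit beside it against a weaker peak at a simple repeat. Each is the dm6 reference from 100 bp before to 100 bp after the summit, plus strand, 5′ to 3′. Capitals mark the 6-letter GATA strings (AGATAA or AGATAG or TGATAA or TGATAG, either strand) and GAGAGAG on either strand, the string bound by GAGA factor. The windows are chr2L:480935-481135 for the strongest peak, chr2L:481146-481346 for rank 235 and chr2L:510656-510856 for rank 553.
ush, rank 2: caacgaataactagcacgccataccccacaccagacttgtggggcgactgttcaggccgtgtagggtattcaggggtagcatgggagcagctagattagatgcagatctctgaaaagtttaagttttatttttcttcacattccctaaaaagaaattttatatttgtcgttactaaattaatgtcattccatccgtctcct
ush, rank 235: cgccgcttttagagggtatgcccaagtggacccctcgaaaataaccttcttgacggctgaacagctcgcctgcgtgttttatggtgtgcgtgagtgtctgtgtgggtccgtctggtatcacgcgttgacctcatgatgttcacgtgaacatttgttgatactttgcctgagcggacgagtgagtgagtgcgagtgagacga
ush, rank 553: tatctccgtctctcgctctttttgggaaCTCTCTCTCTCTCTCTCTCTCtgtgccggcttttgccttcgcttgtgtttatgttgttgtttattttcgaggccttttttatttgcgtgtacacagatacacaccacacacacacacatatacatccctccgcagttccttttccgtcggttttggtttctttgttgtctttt

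The strongest window holds neither string, and 41.3% of its bases are G or C (median of IDR windows 38.3%). The window of rank 553 holds a run of GA repeats (CT on the printed strand) and, further along, CA repeats. Over the 6 IDR windows of ush, 2 held a 6-letter GATA string (ranks 740 and 606). Among all 2133 IDR windows of the same length 32.8% did. The 4-letter core GATA occurred in 4 of the 6, and in 68.8% of all windows. GAGAGAG occurred in 3 of the 6 (ranks 243, 606 and 553), and in 11.1% of all IDR windows. CACACACA occurred in 1 of the 6, against 9.38% of all. A kB string in its broad form (both strands) occurred in 0 of the 6, and in 0.938% of all IDR windows. With 6 windows, of which 2 come from overlapping regions, these counts describe the windows and say nothing about GATA strings in general.

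GATAd held the second strongest peak of the set. The gene is 5.45 kb long on the plus strand (FBgn0032223, chr2L:10333734-10339185) and encodes a GATA factor. Its peak (chr2L:10334977-10335372, summit 10335175) had rank 419 in the pooled list with a signal value of 145. The ranks were 396 in replicate 2 (signal value 87.4) and 466 in replicate 3 (64.1), so both replicates placed it at nearly the same level. The summits of the replicates lay 2 and 75 bp from the pooled one. It was the single pooled region of the gene, in intron 1 of all 3 transcripts and 1261 bp downstream of the nearest start site. Neither neighbour, Cox10 (start site 2263 bp from the gene) or SamDC (272 bp), held an IDR summit. Of the 2248 protein-coding genes from 3635 to 8178 bp long, 13.2% held one.

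grn held the weakest IDR peak of the set. The gene is 34.1 kb long on the minus strand (FBgn0001138, chr3R:8147368-8181444), with 1 start site. Its peak (chr3R:8153923-8154318, summit 8154121) had rank 1473 in the pooled list with a signal value of 86.6. In replicate 2 its rank was 2272 (signal value 42.7) and in replicate 3 it was 2308 (34.5). Both lie just beyond the first 2133 regions, so by that rank cut grn held a peak only in the pooled list. The region had q under 0.05 in both replicates (−log10 q 1.79 in replicate 2 and 1.66 in replicate 3). The summit is in intron 5 of all 3 transcripts, 27323 bp downstream of the start site. A second region, at 8164965 in intron 4, had rank 2295 in the pooled list, 2586 in replicate 2 and 3753 in replicate 3. The relaxed lists held 17, 14 and 23 regions in grn, in the pooled list and in replicates 2 and 3. No IDR summit lay at the neighbours Arl8 and CheA84a.

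No IDR summit lay at srp, GATAe or pnr, which stand in this order on 1 strand within 55.6 kb of chromosome arm 3R (chr3R:15986152-16041796). The nearest IDR summits were 66.7 kb below srp (rank 1346) and 56.0 kb above pnr (rank 373). The stretch of 178 kb between these summits holds 24 protein-coding genes, these 3 included, and 7.95% of all gaps between neighbouring IDR summits were at least as long. In the relaxed lists the cluster was not empty: 21 pooled summits lay between the start of srp and the end of pnr, with 27 in replicate 2 and 20 in replicate 3. Of the pooled ones, 4 had q under 0.05: 2 at srp, 1 at GATAe and 1 outside these genes and their upstream 1000 bp.

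**Figure D4:**
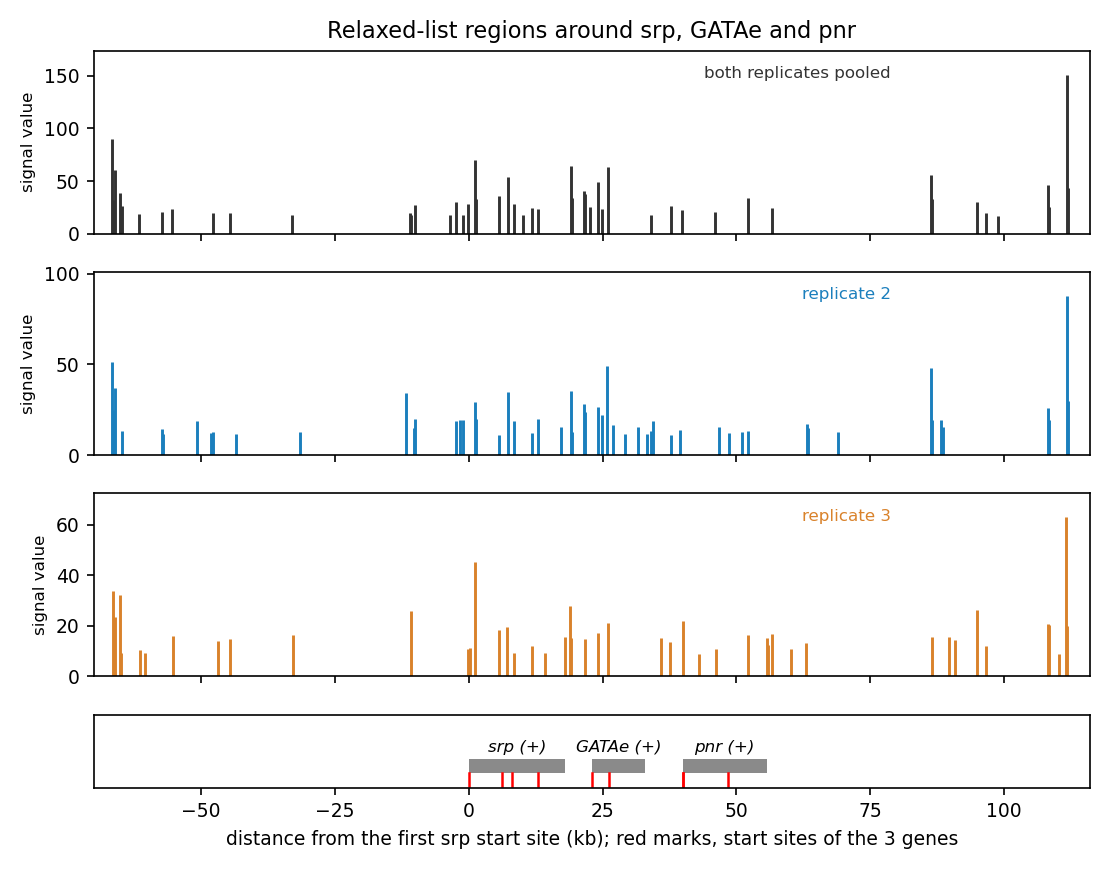
Signal value of every relaxed-list region (vertical axis, linear, own scale in each panel) against the distance in kb from the first srp start site, for the pooled list and for replicates 2 and 3. Grey bars are srp, GATAe and pnr, red marks their start sites, and the IDR peaks of ranks 1346 and 373 stand at the left and right ends. Regions within the genes reach a signal value of 70.3 in the pooled panel, at srp.

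At srp (FBgn0003507, chr3R:15986152-16004085) the replicates disagreed on the strongest region. The best pooled region, with its summit at 15987307, had rank 2270 and a signal value of 70.3. Its rank was 4936 in replicate 2 (signal value 29.3) and 1228 in replicate 3 (45.0), 1 and 4 bp from the pooled summit. It lies 1155 bp downstream of the first srp start site, in intron 1 of the transcripts that begin there and inside the non-coding gene lncRNA:CR44133, which runs on the same strand. A region at 15993421 in exon 2 of 4 srp transcripts, 719 bp upstream of another srp start site, had rank 3940 in the pooled list. It had rank 3536 in replicate 2 and 7276 in replicate 3. The order of these 2 regions thus differs between the replicates. In all, srp held 9 pooled regions and 8 in each replicate.

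GATAe (FBgn0038391, chr3R:16009105-16019133) showed the opposite pattern. Its best pooled region, with the summit at 16012128, had rank 2794 and a signal value of 63.7. Its rank was 1680 in replicate 2 (signal value 49.0), with the summit 123 bp away, and 6299 in replicate 3 (21.1). The summit lies 146 bp upstream of the second GATAe start site, which makes it the region nearest to a start site among the best regions of the 6 genes. The pooled list held 4 regions at GATAe, replicate 2 held 6 and replicate 3 held 2.

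pnr (FBgn0003117, chr3R:16026079-16041796) had the weakest regions of the set. Its best pooled region, in intron 1, had rank 8846 and a signal value of 33.6. The best rank was 16276 in replicate 2 and 5936 in replicate 3, at different places in the gene. None of its 3 pooled regions had q under 0.05. The pooled density at this gene, 1.79 regions per 10 kb, was above that of 54.2% of protein-coding genes. Only 52.8% of protein-coding genes held any pooled region, so most of the genes below pnr held none. The next gene, Jhbp4, held no IDR summit.

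Sequences at the best region of 4 of the 5 GATA factor genes are given in the same form as for ush, with the same strings in capitals, to set the windows inside the IDR list beside those outside it. They are chr2L:10335075-10335275 (GATAd), chr3R:8154021-8154221 (grn), chr3R:15987207-15987407 (srp) and chr3R:16012028-16012228 (GATAe).
GATAd, rank 419: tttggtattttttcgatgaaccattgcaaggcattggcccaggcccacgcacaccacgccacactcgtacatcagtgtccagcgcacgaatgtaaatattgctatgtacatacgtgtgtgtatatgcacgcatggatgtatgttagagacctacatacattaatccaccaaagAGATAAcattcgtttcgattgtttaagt
grn, rank 1473: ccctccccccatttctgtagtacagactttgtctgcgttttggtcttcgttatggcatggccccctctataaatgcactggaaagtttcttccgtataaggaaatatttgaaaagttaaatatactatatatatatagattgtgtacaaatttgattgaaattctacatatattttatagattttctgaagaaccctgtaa
srp, rank 2270: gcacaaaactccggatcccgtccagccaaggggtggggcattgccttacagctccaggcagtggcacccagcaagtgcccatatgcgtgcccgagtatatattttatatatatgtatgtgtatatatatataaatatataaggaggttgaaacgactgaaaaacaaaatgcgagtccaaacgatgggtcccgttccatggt
GATAe, rank 2794: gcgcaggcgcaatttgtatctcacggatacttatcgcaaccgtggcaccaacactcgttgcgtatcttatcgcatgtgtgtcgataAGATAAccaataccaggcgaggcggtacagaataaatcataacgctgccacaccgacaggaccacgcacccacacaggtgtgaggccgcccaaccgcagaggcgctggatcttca

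A 6-letter GATA string occurred at GATAd, 73 to 78 bp after the summit, and at GATAe, 14 to 9 bp before it. The GATAe window held the core GATA 7 times on the 2 strands together. The grn and srp windows held neither the 6-letter strings nor the core, and both contain runs of alternating T and A. GC content was 42.8% at GATAd, 33.3% at grn, 45.8% at srp and 54.2% at GATAe. Over the 8 IDR windows of the set, 3 held a 6-letter GATA string, 3 held GAGAGAG and 0 held the broad kB string.

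By the replicates alone, different genes held a peak. In the first 2133 regions of replicate 2 these were ush, GATAd and GATAe, 3 of 6, and 10.8% of all protein-coding genes held one. In those of replicate 3 they were ush, GATAd and srp, again 3 of 6, and 10.6% of all did. With every pooled region with q under 0.05, which are 4236, 5 of the 6 held one, all but pnr, against 17.5% of all genes. ush and GATAd thus held a peak in every list, and srp, GATAe and grn depended on the list. ush held 7 summits in the list from replicate 2 and 6 in that from replicate 3.

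The genes most like ush were sought by the rank of the best region in the pooled list, replicate 2 and replicate 3, as the Euclidean distance over the log10 ranks. Of 5703 genes with a region in all 3 lists, Tina-1 was nearest (distance 0.413, ranks 4, 3 and 6). Ugalt and eIF2Bbeta, which share a peak, came next (0.629, ranks 3, 4 and 3). CG32772 followed (0.853, ranks 8, 8 and 9), then Gprk2 and PNPase, which also share a peak (0.939, ranks 7, 9 and 4). These genes held 1 IDR summit each, save CG32772 with 3, while ush held 6. The measure uses 2 samples and their pool, and says only that the best regions stand at like ranks.

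Other genes were counted from 7 lists, of genes taken as Ush partners, of genes of tissues that need GATA factors, and of immune genes. They were counted by the IDR list and set beside the 10.6% of all protein-coding genes. The lists were chosen with earlier results of these data known, so the shares are a description and nothing is read from the comparison. Genes that hold a summit are longer (median 7399 bp) than all protein-coding genes (2166 bp), so the median length of each list is given. Of the 1341 protein-coding genes from 6686 to 15044 bp long, 22.2% held a summit. The median lengths of the Ush partner, midgut, and thorax and heart lists fall in this range. Of genes from 3635 to 8178 bp long 13.2% did, a range that holds the blood cell median and also the thorax and heart median. Of genes from 10479 to 23577 bp long 29.2% did, a range that holds the posterior spiracle median. The medians of the other lists are shorter than these ranges. Of the 11 genes in the list called Ush partners here, 5 held a summit (45.5%; median length 10084 bp). The list also takes in other transcription regulators, Mef2 among them. Whether each listed product binds Ush was not checked. Subunits of the NuRD chromatin remodelling complex among them were Mi-2, its ATPase, with 4 summits (best rank 86), simj, its p66 subunit, with 7 (best rank 231), and MTA1-like with 1 (rank 607). The corepressor gene CtBP had 1 (rank 267) and Mef2, a muscle regulator, 4 (best rank 556). HDAC1, Caf1-55 and MBD-like, the remaining NuRD subunits listed, held none, and these genes are short (2734, 1989 and 1774 bp). Not every gene of the list without a summit is short, as another is 21324 bp long. Whether gene length accounts for the missing summits was not tested.

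Blood cell genes, the tissue in which Srp and Ush have been studied together, were at the general level: 2 of 18 held a summit (11.1%; median length 4129 bp). These were zfh1, a zinc finger homeodomain factor (rank 790), and N, the Notch receptor (best rank 1319). The lineage regulators lz and gcm and the marker Hml held none. Of 18 genes of the dorsal thorax and heart 5 held one (27.8%; median length 7834 bp), among them tin, the heart determinant (rank 204), and mirr, an Iroquois gene (rank 501). caup, ac and sr had peaks at ranks 1756, 1993 and 1867, and wg and dpp none. Without replicate 3 the count was 3 of 18, and without replicate 2 it was 4. It was 2 with no upstream stretch counted and 2 in the first 1066 IDR peaks. With all pooled regions with q under 0.05 it was 9. In the midgut and endoderm list 5 of 12 held one (41.7%; median length 10316 bp), namely fkh (rank 363), nub (best rank 800), Delta, the Notch ligand, with 4 summits (best rank 1339), pros (rank 1876) and Myo31DF (best rank 1903), while esg and cad did not.

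Of 12 fat body genes 2 held a summit (16.7%; median length 2754 bp). They were Lpin, a phosphatidate phosphatase (rank 20), and bmm, a triglyceride lipase (rank 901), while the storage protein genes Lsp1alpha and Lsp2 held none. Without replicate 3, 1 fat body gene did. In the posterior spiracle list, the tissue that needs grn, 1 of 6 did (16.7%; median length 15384 bp), crb, an apical polarity gene (rank 71), but not ct or ems. Of 17 NF-κB and antimicrobial peptide genes, only Dif, an NF-κB factor of the Toll pathway, held one (rank 1265; 5.88%; median length 505 bp). AttA, CecA1 and DptA had none. Without replicate 2 the posterior spiracle count was 2 of 6 and the NF-κB and peptide count 2 of 17. The median of the best pooled rank was 4694 for the Ush partners, 13010 for blood cell, 4885 for thorax and heart, 4588 for midgut, 13225 for fat body, 6186 for posterior spiracle and 18851 for NF-κB and peptide genes. Over all protein-coding genes it was 26651, with genes that hold no pooled region placed last. With each gene taken once, 21 of 94 listed genes held a summit (22.3%).

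**Figure D5:**
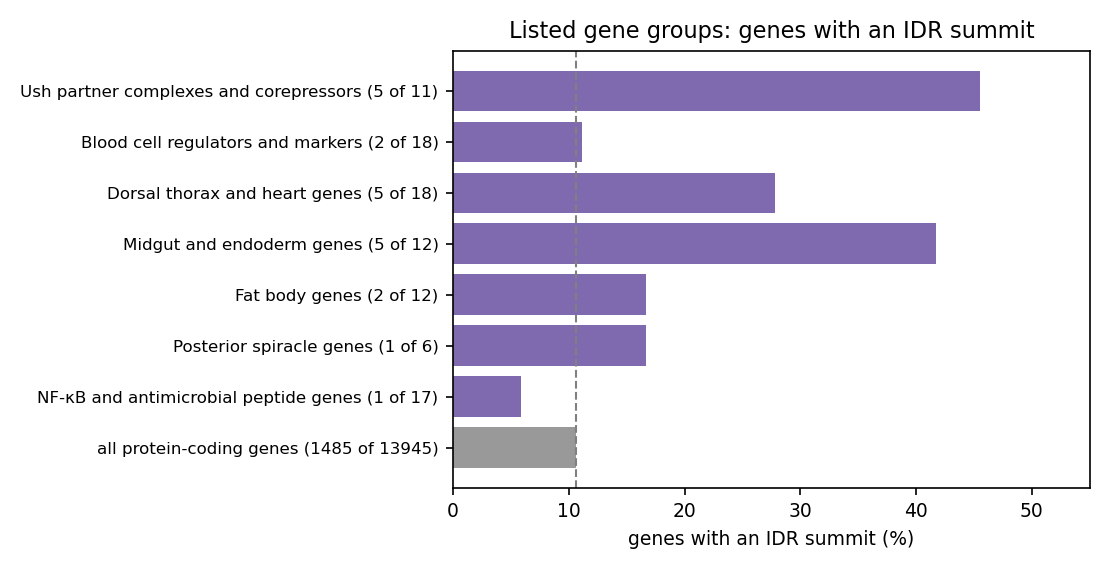
Percent of the genes of each list that held an IDR summit (purple bars, counts in the labels) and of all protein-coding genes (grey bar and dashed line, 10.6%). The list of genes taken as Ush partners reaches 45.5% and the blood cell list lies near the dashed line at 11.1%. The list of NF-κB and antimicrobial peptide genes lies below it at 5.88%. The lists differ in gene length and were chosen with earlier results of these data known.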

How the data were processed

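ChIP-seq peak lists from 2 biological replicates of Rel-GFP larvae were used as deposited, on build dm6. The signal value, as deposited, comes from the peak caller and is set against a control alignment that was not analysed here. The −log10 q, as deposited, served for 1 threshold (q under 0.05). Per the readme files deposited with the samples, relaxed lists were made for each replicate and for the pooled alignments, and the IDR list from them. Depth is unknown, as the lists hold no read counts. Which aligner and caller were used is not given in the sources used here. By signal value, the first 2133 pooled regions equalled the IDR list.

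Regions were ranked by signal value within 1 list, and a region of a replicate was matched to the pooled one if it was the nearest, with summits at most 200 bp apart. Genes are those of Ensembl release 115 (BDGP6.54, dm6 coordinates, counted from 1). Sequence came from the RefSeq Release 6 assembly, which has the same coordinates, and no region ended beyond a chromosome of it. Strings were searched on both strands in windows of 201 bp. Gene lists and genes named follow written rules: the 6 genes, their neighbours, the 5 genes nearest to ush by rank with those tied for the last place, and up to 5 bound and 3 unbound genes per list. The members and lists were chosen with earlier results of these data known. Of 95 list symbols 94 were matched, Dl by its gene ID to Delta, and 1 that several genes share as a synonym was not analysed here. No test was made, since there is 1 group. Counting was tested on simulated data. Alternatives left out each replicate, or changed the list, the gene assignment or the window. The dm3 lists were used only for 1 comparison of signal values. Python 3.11.15, numpy 2.4.6, pandas 2.3.3 and matplotlib 3.10.9 were used.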

Additional observations from a re-analysis of the deposited data

How the results depend on the processing

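The number of the 6 genes with a summit, 3, was also 3 without replicate 2 (ush, GATAd and srp), without replicate 3 (ush, GATAd and GATAe) and under 4 other ways to assign summits to genes. It was 2 in the first 1066 IDR peaks and 5 with all pooled regions with q under 0.05. At ush the 6 summits became 13 with that list and 3 when each summit went to the nearest start site, since the summits near cbt then count for cbt. Without replicate 2 and without replicate 3 ush held 6 and 7 summits, and its best rank was 10 and 2. With 5000 bp upstream ush held 7, the added summit being that of rank 1284. The 21 listed genes with a summit became 13 in the first 1066 IDR peaks and 32 with the regions of q under 0.05. A 6-letter GATA string was found in 2 of the 6 ush windows, but in 1 with 50 bp either side, in 4 with 200 bp either side and in 4 as the 4-letter core. Without replicate 2 a summit lay in srp, and the summit nearest to GATAe lay 21794 bp away. Without replicate 3 a summit lay in GATAe, and the one nearest to srp lay 7920 bp away. On dm3 the second peak by signal value was also on 2L (signal value 578, width 294 bp), but it was not matched to a gene. With no read counts, the precision of a rank is unknown.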

Other observations

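The stretch without IDR summits around srp, GATAe and pnr also holds IKKbeta, the kinase of the Imd pathway that acts on Rel, whose 3′ end lies 4.55 kb beyond the end of pnr. In the relaxed pooled list, IKKbeta and the 1000 bp upstream of it held no summit.

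The string CACGTG, an E-box, was looked for only after the windows had been seen. It occurred in 3 of the 13 ush windows with q under 0.05 (23.1%, ranks 235, 2731 and 3233). It occurred in 0 of the 7 windows of the other genes, among which that of pnr did not have q under 0.05. Of all 4236 pooled windows with q under 0.05, 2.15% held it, and of the 2133 IDR windows 1.92%. Since the string was picked from these windows, the count is no evidence of enrichment.

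A 6-letter GATA string and the broad kB string occurred together in 6 of the 2133 IDR windows (0.281%), none of them at the GATA genes or ush. The start sites nearest to these summits were those of Svil (rank 443), CG9328 (456), Fbl6 (666), CG46491 (955), Pepck2 (1232) and mtd (1729).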
